A study of Mus musculus with 30 samples.

Results

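The enzymes described here make serine, asparagine and proline, or carry carbon into and out of those routes, in EL4 tumours of mice. EL4 is a mouse T cell lymphoma line. The set has 10 genes: Phgdh, Psat1, Psph, Shmt2, Mthfd2, Asns, Aldh18a1, Pycr1, Pck2 and Cth. The group was chosen by a measured value, because Pck2 was higher in tumours of antibiotic-treated mice in these same arrays. The difference between antibiotic and water mice is therefore given as a description, without a test, and the tests are of the change with time after the drug. Changes of Pck2 with time start from those same values, so they too are given without a test, and the tests are of the other 8 enzymes measured. Of the 10 genes, 9 were on a row of the array table that carried 1 gene symbol, among 19938 genes measured in all. Pycr1, which completes proline synthesis, had no such row and was not analysed here. Phgdh had a second row, shared with Gm6756, that was not used.

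Tumours grew for 7 days from EL4 cells injected under the skin of the flank. Mice labelled H2O had no antibiotics and are called water mice here, and the others had received a cocktail of antibiotics for 3 weeks before the cells. Oxaliplatin, which forms platinum adducts on DNA, was injected in all groups at 10 mg per kg, and tumours were taken at 0, 6 or 18 h. The 6 groups (water or antibiotics, at each time) held 5 arrays each, 30 in all. Titles of all samples carry "WT"; strain, sex and age are not given in the sources used here, and neither is the content of the cocktail. There were no tumours without oxaliplatin at 6 or 18 h, so an effect of the drug and other change with time cannot be told apart. No label says that each sample came from its own mouse, so the p-values rest on the spread of these samples, and some of that spread may be technical. Sample numbers run in blocks by group, and an effect of handling order, had there been one, and the group cannot be told apart.

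Serine is made from a glycolytic intermediate in 3 steps, carried out by Phgdh, Psat1 and Psph. In mitochondria Shmt2 then splits serine into glycine and a one-carbon unit, which Mthfd2 oxidises on the way to purine and thymidine synthesis. Asns makes asparagine from aspartate, Aldh18a1 starts proline synthesis from glutamate, mitochondrial Pck2 makes phosphoenolpyruvate from oxaloacetate, and Cth releases cysteine from cystathionine. Many of these genes are textbook targets of Atf4, a transcription factor translated when amino acids run short, which pairs with C/EBP proteins at a composite element in the promoters of its targets.

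That element was searched as TGATGNAA on both strands of RefSeq promoters (GRCm38.p6, 250 bases before to 50 bases after a start), where N is any base. Promoters were listed for 9 of the 10 enzymes (Psat1 had 2), and those of Asns, Pycr1 and Pck2 held 1 match each. The element stood in 3.97% of all 32851 promoters in the table, and 4.51% of genes had a promoter with it. The promoters of Phgdh, Psat1, Psph, Shmt2, Mthfd2 and Aldh18a1 did not hold these letters in this window, which says nothing of other sites or of binding. A match is a description of the letters only. The 120 bases directly before the start are shown 5′ to 3′ on the strand of the gene because they hold the 3 matches, with the match in capitals. In Asns the match began 23 bases before the start and read TGATGAAA, in Pycr1 it began 103 bases before and read TGATGCAA, and in Pck2 it lay in reverse, with its first base in the printed strand 103 bases before the start, and read TGATGTAA on the other strand.
Asns, chr6:7693210-7693329, minus strand: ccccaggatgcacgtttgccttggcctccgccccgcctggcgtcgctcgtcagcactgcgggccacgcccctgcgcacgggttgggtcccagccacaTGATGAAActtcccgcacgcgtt
Pycr1, chr11:120643749-120643868, minus strand: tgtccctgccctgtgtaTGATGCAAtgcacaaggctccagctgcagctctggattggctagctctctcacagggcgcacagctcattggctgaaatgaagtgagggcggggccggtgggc
Pck2, chr14:55540146-55540265, plus strand: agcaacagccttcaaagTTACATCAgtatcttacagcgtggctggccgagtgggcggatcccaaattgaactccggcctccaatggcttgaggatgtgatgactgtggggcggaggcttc

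Values are log2 expression as deposited, so a difference of 1 is a doubling and an error is an SD between arrays or an SE of a difference. Most markers of T cells, the origin of the line, were high: Cd3e averaged 11.29, Cd3g 11.89 and Thy1 11.93 over the 30 arrays, against a median gene of 7.52. Cd2 was near that median, at 7.83, and Lck was not measured. The mean of the keratinocyte markers was 2.66 above its average over all arrays on water 6 h array 1 and 2.36 above it on antibiotic 6 h array 1. The mean of the skeletal muscle markers was 1.56 above its average on antibiotic 6 h array 5. That array matters below, because it held the lowest value of its group in 8 of the 9 enzymes, and array 5 of the antibiotic 18 h group did so too in 8 of 9. These are whole tumours, so more cells of a type and more RNA per cell cannot be told apart.

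All 9 measured enzymes had higher means in antibiotic than in water tumours at each of the 3 times. The differences were greatest in Pck2 and Mthfd2, at 1.41-fold and 1.34-fold averaged over the times, then in Psph and Aldh18a1, at 1.25-fold and 1.20-fold. Those of Shmt2, Phgdh, Psat1, Cth and Asns lay between 1.09-fold and 1.17-fold. The median difference of the 9 enzymes was 0.14 at 0 h, 0.27 at 6 h and 0.23 at 18 h on the log2 scale, while the median over all genes was within 0.0114 of 0 at each time. Every antibiotic array lay above every water array in 4 enzymes at 0 h, where 0.883% of all genes did so, in 4 at 6 h, where 1.53% did, and in 3 at 18 h, where 4.73% did. Pck2 was among the 4 at 0 h and among the 4 at 6 h. At 6 h the nearest arrays of the others were equal to 2 decimals, at 10.33 in Phgdh, 11.23 in Aldh18a1 and 6.23 in Cth. Since the difference in Pck2 chose the set, nothing is read from these counts.

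**Figure D1:**
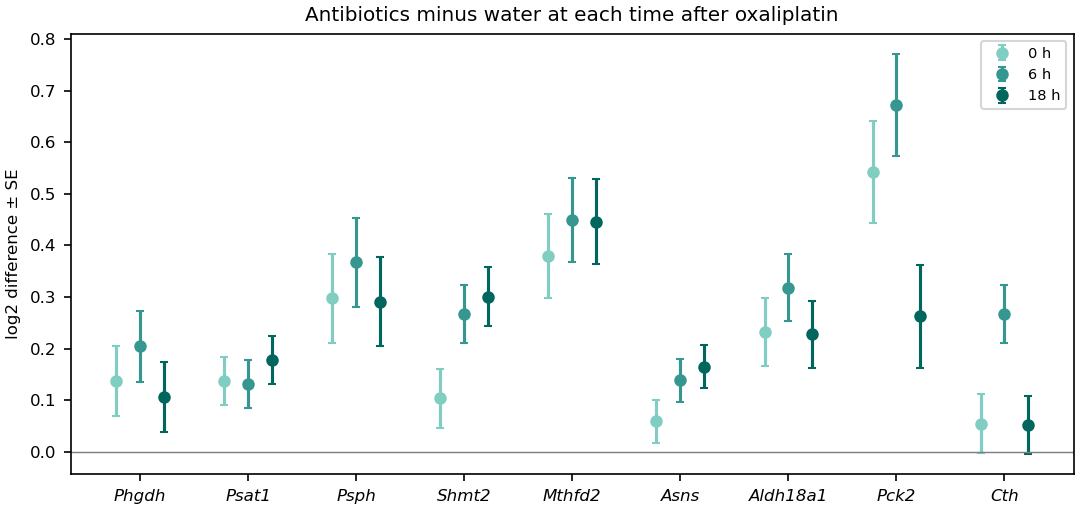
Difference in mean log2 expression, antibiotics minus water, for the 9 measured enzymes at 0, 6 and 18 h after oxaliplatin; points are differences of means of 5 arrays and bars are the SE of the model. All 27 differences lie above 0, and that of Pck2 is 0.54 at 0 h, 0.67 at 6 h and 0.26 at 18 h.

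Pck2, the enzyme the set was chosen for, read 8.91, 9.15, 8.97, 8.89 and 8.84 on the water arrays at 0 h and 9.34, 9.66, 9.54, 9.42 and 9.52 on the antibiotic arrays. At 6 h it read 8.79, 8.97, 8.81, 8.95 and 8.93 in water tumours and 9.61, 9.76, 9.79, 9.63 and 9.02 in antibiotic tumours. The groups were apart at both times, with antibiotic 6 h array 5 standing alone just above the water arrays. By 18 h the values were 8.75, 8.73, 8.75, 8.56 and 8.59 with water and 8.96, 8.92, 9.00, 9.09 and 8.73 with antibiotics, and array 5 of the antibiotic group now lay among the water arrays. The differences were 0.54, 0.67 and 0.26, each ± 0.10 (SE, n = 5 per group), at 0, 6 and 18 h. Without antibiotic 6 h array 5 the SD of that group was 0.091 in place of 0.31 and the difference at 6 h was 0.81.

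Of the 3 enzymes of serine synthesis, Psph, the phosphatase of the last step, differed most. It read 8.53, 8.66, 8.62, 8.62 and 8.62 in water tumours at 0 h and 8.80, 8.96, 8.87, 8.88 and 9.04 in antibiotic tumours. At 6 h the water arrays read 8.66, 8.63, 8.54, 8.61 and 8.77 and the antibiotic arrays 9.01, 9.20, 9.17, 9.14 and 8.53. The antibiotic group was above the water group at 0 h, and at 6 h 4 of its arrays were while array 5 read lowest of all 10. At 18 h Psph read 8.57, 8.59, 8.51, 8.43 and 8.31 against 8.84, 8.73, 8.79, 8.89 and 8.62, again with no overlap. Its differences were 0.30, 0.37 and 0.29, each ± 0.086, and that at 6 h was 0.49 without array 5.

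Phgdh and Psat1, the dehydrogenase and the aminotransferase that come before Psph, differed less. Psat1 averaged 11.85 ± 0.048 (SD, n = 5) with water and 11.99 ± 0.081 with antibiotics at 0 h, 11.82 ± 0.029 and 11.95 ± 0.086 at 6 h, and 11.65 ± 0.047 and 11.82 ± 0.095 at 18 h. Its groups overlapped at each time, at 18 h by 1 array: the antibiotic arrays began at 11.71 and the water arrays ended at 11.73. Phgdh averaged 10.38 ± 0.11 and 10.52 ± 0.13 at 0 h, 10.26 ± 0.059 and 10.46 ± 0.096 at 6 h, and 10.25 ± 0.16 and 10.36 ± 0.072 at 18 h. Its groups overlapped at 0 and 18 h, and at 6 h the nearest arrays of the groups both read 10.33.

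Mthfd2, the mitochondrial one-carbon dehydrogenase, read 10.92, 11.13, 11.01, 10.90 and 11.06 in water tumours at 0 h and 11.36, 11.46, 11.29, 11.39 and 11.44 in antibiotic tumours. At 6 h the values were 10.89, 10.90, 10.83, 10.95 and 11.06 against 11.42, 11.45, 11.54, 11.49 and 10.99. At 18 h they were 10.60, 10.81, 10.55, 10.53 and 10.58 against 11.16, 11.05, 11.16, 11.13 and 10.79. The groups were apart at 0 h, and at 6 and 18 h they overlapped only through array 5 of the antibiotic group. The differences were 0.38, 0.45 and 0.45, each ± 0.082, and the one at 6 h was 0.55 without that array.

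Shmt2, which feeds Mthfd2, had a difference of 0.10 at 0 h, 0.27 at 6 h and 0.30 at 18 h, each ± 0.057. At 0 h the water arrays read 10.91, 10.91, 10.95, 10.85 and 10.91 and the antibiotic arrays 10.99, 11.13, 10.90, 10.98 and 11.03, so that the groups overlapped. At 6 h the values were 10.64, 10.65, 10.57, 10.70 and 10.80 against 11.01, 11.04, 10.85, 11.06 and 10.76. Only array 5 of the antibiotic group fell within the range of the water group there. At 18 h the groups were apart, at 10.26, 10.37, 10.40, 10.33 and 10.26 against 10.72, 10.65, 10.53, 10.70 and 10.51.

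Asns read 12.71, 12.75, 12.69, 12.67 and 12.63 in water tumours at 18 h and 12.94, 12.83, 12.86, 12.89 and 12.76 in antibiotic tumours, and the groups were apart. At 0 h the means were 12.85 ± 0.050 and 12.91 ± 0.060, and at 6 h 12.78 ± 0.013 and 12.92 ± 0.092, with overlap at both times. Aldh18a1, the first enzyme of proline synthesis, had differences of 0.23, 0.32 and 0.23, each ± 0.065. Its arrays read 11.25, 11.34, 11.28, 11.21 and 11.25 against 11.38, 11.53, 11.44, 11.52 and 11.62 at 0 h, which did not overlap. At 6 h they read 11.10, 11.17, 11.11, 11.18 and 11.23 against 11.53, 11.55, 11.54, 11.52 and 11.23, so antibiotic array 5 lay just above the highest water array. At 18 h the water arrays read 11.03, 11.09, 11.01, 10.91 and 10.81 and the antibiotic arrays 11.26, 11.20, 11.21, 11.35 and 10.97, where array 5 was the one within the water range.

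Cth, which closes the route from methionine to cysteine, was dim: its mean over all arrays was 6.21, and 25% of all genes lay below 6.18. It read 6.23, 6.05, 6.11, 6.04 and 6.19 in water tumours at 6 h and 6.23, 6.27, 6.46, 6.54 and 6.45 in antibiotic tumours, a difference of 0.27 ± 0.057. Array 5 was not its lowest array there. At 0 and 18 h the groups overlapped and the differences were 0.05 at both times.

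**Figure D2:**
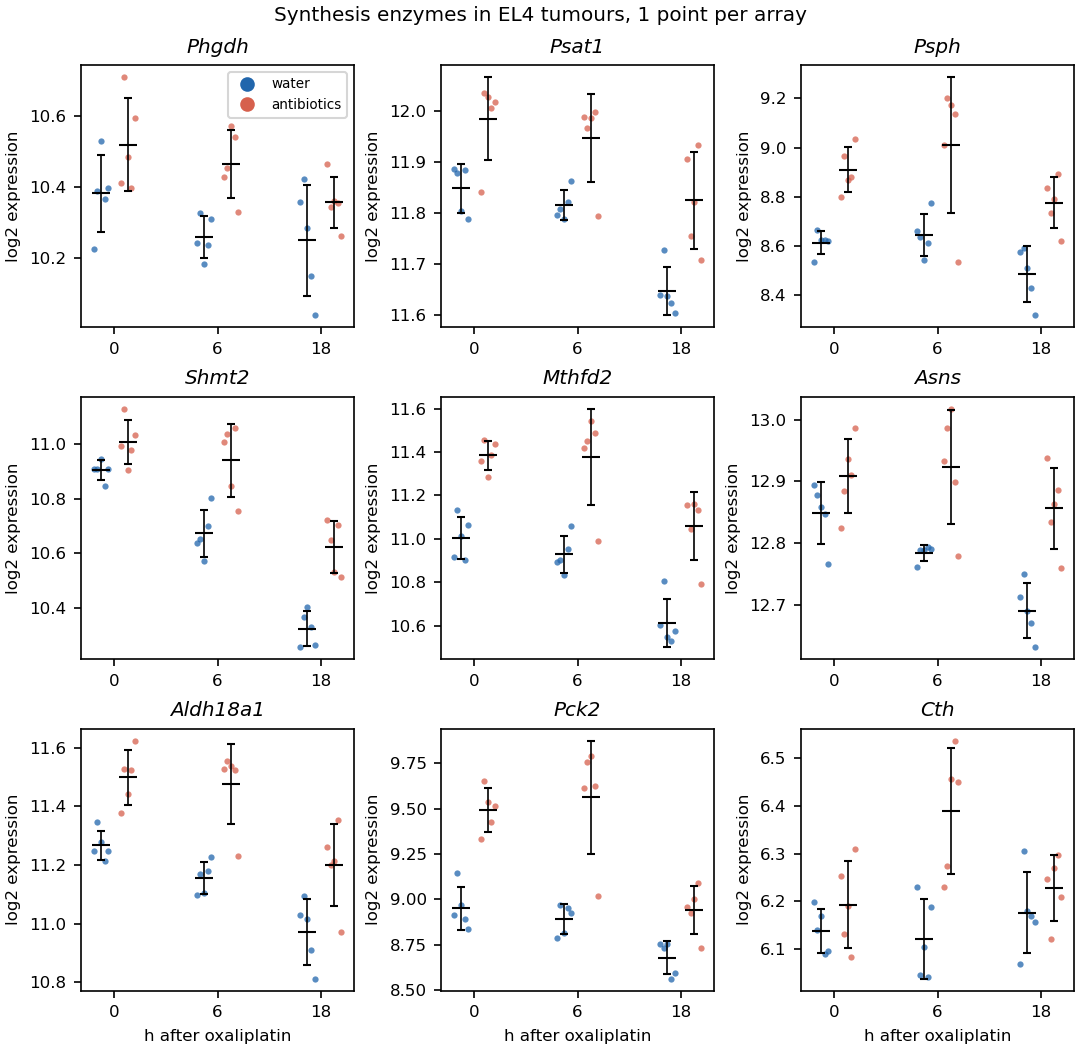
Log2 expression of each of the 9 measured enzymes on each array, water in blue and antibiotics in red, against hours after oxaliplatin (times evenly spaced); points are arrays, the dash is the mean and the bar the SD of 5 arrays, and each panel has its own scale. Shmt2 in water tumours steps down from 10.85 to 10.95 at 0 h to 10.26 to 10.40 at 18 h, and array 5 of the antibiotic 6 h group lies below the other 4 in all panels but that of Cth.

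The first tested question was how the enzymes changed after oxaliplatin in water mice. At 6 h Shmt2 fell, by 0.23 ± 0.057 (adjusted p = 0.0364, limma with Benjamini-Hochberg adjustment over all genes), and no other of the 8 enzymes tested passed. Of all genes 0.416% fell and 1.11% changed either way. Each of the 5 water arrays read below each of the arrays at 0 h in Shmt2 alone, which 1.94% of all genes did. The call of Shmt2 at 6 h was close to the threshold: leaving out any of water 0 h arrays 1, 2, 3 or 5 or water 6 h arrays 1 to 4 moved its adjusted p to between 0.0678 and 0.114. It was 0.069 without the 3 arrays high in skin or muscle markers.

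At 18 h in water mice 5 of the 8 enzymes tested fell, against 7.94% of all genes, and none rose. Shmt2 fell by 0.58 ± 0.057 to 0.669 times its level at 0 h (adjusted p = 3.49e-07), and Mthfd2 fell by 0.39 ± 0.082 (adjusted p = 0.00134). Aldh18a1 fell by 0.30 ± 0.065 (adjusted p = 0.00238), Psat1 by 0.20 ± 0.047 (adjusted p = 0.00346) and Asns by 0.16 ± 0.042 (adjusted p = 0.0105). The 5 are both mitochondrial one-carbon enzymes, the first proline enzyme, the aminotransferase of serine synthesis and asparagine synthetase. Pck2, without a test, had a change of -0.27 ± 0.099. Phgdh and Psph were each at -0.13, with adjusted p of 0.232 and 0.389, and Cth was at 0.04. The median change of the 9 enzymes was -0.20, and that of all genes was 0.01.

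All 5 water arrays at 18 h lay below all 5 at 0 h in the 5 enzymes called, where 6.69% of all genes did so. They did so in Pck2 too, from which nothing is read because its values chose the set. The 5 calls at 18 h held in all 39 other settings. Between 6 and 18 h Shmt2 fell by 0.35, Mthfd2 by 0.32 and Psat1 by 0.17 (adjusted p = 0.000539, 0.0149 and 0.0212), where 6.46% of all genes fell. Without water 6 h array 5 or water 18 h array 3 the adjusted p of Psat1 was 0.0597 or 0.0502.

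In antibiotic mice no enzyme passed at 6 h, and neither did any gene (0 of 19938, or 0%). An unadjusted p under 0.05 was reached by 2011 genes, where about 997 would by chance. A linear model without moderation of the variances called 0 genes as well. Among the enzymes Cth alone had an unadjusted p under 0.05, with a change of 0.20 ± 0.057 (adjusted p = 0.256). The other 8 lay between -0.07 and 0.10. The antibiotic 6 h group was also the one with array 5 apart, and 1 error shared by all groups understates its spread.

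At 18 h in antibiotic mice 3 of the 8 enzymes tested fell, against 0.908% of all genes, and none rose. Shmt2 fell by 0.38 ± 0.057 (adjusted p = 0.000305). Aldh18a1 fell by 0.30 ± 0.065 (adjusted p = 0.0154) and Mthfd2 by 0.33 ± 0.082 (adjusted p = 0.0404). Psat1 was at -0.16 (adjusted p = 0.0939), Phgdh at -0.16, Psph at -0.13, Asns at -0.05 and Cth at 0.03. Pck2, without a test, had a change of -0.55 ± 0.099, to 0.682 times its level at 0 h. In the 3 that fell, all arrays at 18 h lay below all arrays at 0 h, which 1.82% of all genes did. Those of Pck2 did so too, from which nothing is read because its values chose the set. Shmt2 passed in all 39 other settings, while Aldh18a1 and Mthfd2 did not.

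Fitting only these 2 groups left 1 call, that of Shmt2, with an adjusted p of 0.12 for Aldh18a1 and 0.0994 for Mthfd2. Aldh18a1 was also lost without antibiotic 0 h array 2 or 5 or antibiotic 18 h array 5 (adjusted p of 0.0515, 0.0619 and 0.0833). Mthfd2 was lost without 1 of 10 arrays: antibiotic 0 h arrays 1, 2, 4 and 5, antibiotic 18 h arrays 2, 3 and 5 and water 6 h arrays 1, 2 and 4, with adjusted p from 0.0504 to 0.193. Between 6 and 18 h the same 3 enzymes fell, Mthfd2 and Shmt2 by 0.32 and Aldh18a1 by 0.27 (adjusted p = 0.0369, 0.00475 and 0.0266), where 0.888% of all genes fell, and Pck2 had an untested change of -0.62. With only those groups fitted none of the 3 passed. Leaving out antibiotic 6 h array 3 or 4 or antibiotic 18 h array 2 or 5 left 1 of the 3 calls, that of Shmt2, and without antibiotic 6 h array 5 there were 5 calls. Mthfd2 was also lost with array medians subtracted (adjusted p = 0.0534). Mthfd2 alone was lost without antibiotic 6 h array 1 or 2, and Aldh18a1 alone without antibiotic 18 h array 3 (adjusted p of 0.0563, 0.0653 and 0.0518).

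**Figure D3:**
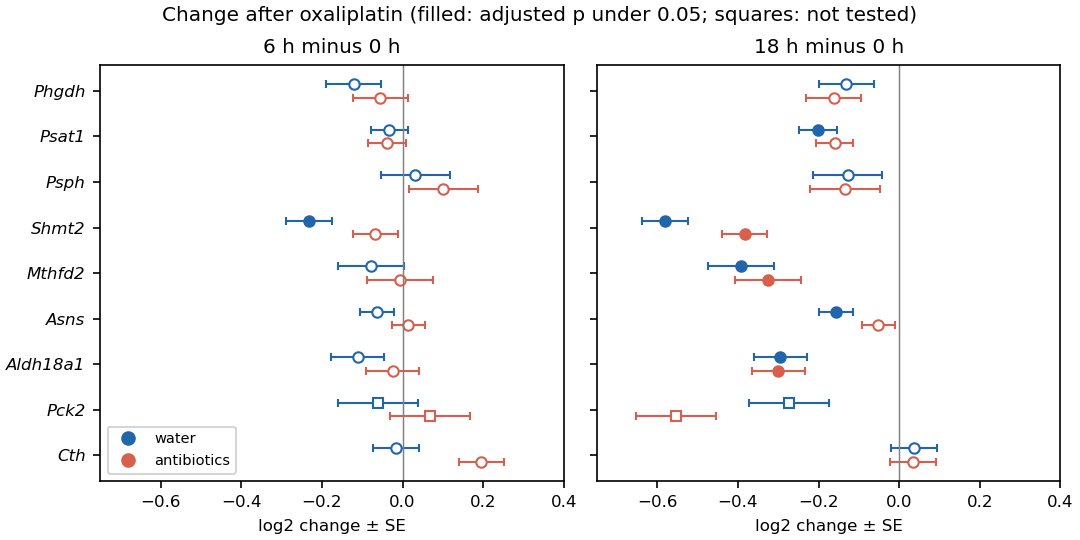
Change in mean log2 expression from 0 h to 6 h (left) and to 18 h (right) for each enzyme, in water mice (blue) and antibiotic mice (red); bars are the SE of the model filled points passed at an adjusted p under 0.05, and squares mark Pck2, which was not tested. At 6 h only Shmt2 in water mice is filled, and at 18 h 5 points are filled in water and 3 in antibiotic mice, all to the left of 0.

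Averaged over water and antibiotic mice, 6 of the 8 enzymes tested were lower at 18 h than at 0 h, against 8.14% of all genes, and none was higher. The changes were -0.48 ± 0.040 in Shmt2 (adjusted p = 1.15e-08), -0.36 ± 0.058 in Mthfd2 (adjusted p = 6.75e-05) and -0.30 ± 0.046 in Aldh18a1 (adjusted p = 4.53e-05). Smaller falls were seen in Psat1 (-0.18, adjusted p = 0.000284), Phgdh (-0.15, adjusted p = 0.0378) and Asns (-0.10, adjusted p = 0.0152). Psph at -0.13 ± 0.061 did not pass (adjusted p = 0.163), nor did Cth at 0.04. Pck2, without a test, was at -0.41 ± 0.070. Phgdh was the least secure of the 6. It was lost when 1 of 12 arrays was left out (antibiotic 0 h arrays 2 and 5, antibiotic 18 h arrays 2 to 5, water 0 h arrays 2 to 5 and water 18 h arrays 4 and 5), with adjusted p from 0.0506 to 0.0888, and also with array weights (adjusted p = 0.0647) and with only the groups compared fitted (adjusted p = 0.0657).

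For the 8 enzymes other than Pck2, the change with time in antibiotic mice was tested against that in water mice. None passed at 6 h, where 0% of all genes did, or at 18 h, where 0.105% did. At an unadjusted p under 0.05 there were 1964 genes at 6 h and 1893 at 18 h, and 1 enzyme each time. By chance alone about 997 genes would reach it. A linear model without moderation called 0 genes at 6 h and 34 at 18 h, none of them among these enzymes. At 18 h the change of Shmt2 was 0.20 ± 0.080 less negative in antibiotic mice (95% interval 0.03 to 0.36, adjusted p = 0.397). At 6 h the change of Cth was 0.21 ± 0.080 higher there (95% interval 0.05 to 0.38, adjusted p = 0.393).

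For Asns at 18 h the difference was 0.11, with a 95% interval from -0.02 to 0.23, and for Mthfd2 it was 0.07, from -0.17 to 0.30. For Aldh18a1 it was -0.0044, from -0.19 to 0.19, and for Psph -0.0066, from -0.26 to 0.24. Pck2, on which the choice of the set rests, had values of 0.13 ± 0.14 at 6 h and -0.28 ± 0.14 at 18 h, given without a test. These numbers restate its antibiotic differences of 0.54, 0.67 and 0.26.

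The enzymes varied together across arrays. Over the 36 pairs of the 9 enzymes the median Pearson correlation across the 30 arrays was 0.83, and all 36 were above 0. With group means taken out, so that only arrays of the same group are set against each other, the median was 0.64 and 35 were above 0. Without antibiotic 6 h array 5 and antibiotic 18 h array 5, the 2 arrays farthest from the median of the enzymes' mean level so adjusted, that median was 0.44 and 34 pairs were above 0. The arrays share their groups, their hybridisation and any difference in cell content, so these are descriptions.

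Aldh18a1 and Mthfd2 followed the mean of the other 8 enzymes most closely, with correlations of 0.98 and 0.97, and Pck2 followed at 0.94, Psat1 at 0.93, Psph at 0.91 and Asns at 0.90. Shmt2 and Phgdh were at 0.83 and 0.80. Cth stood apart from the set at 0.41, and at 0.06 with group means taken out. Of the genes outside the set, Slc7a5, a transporter of large neutral amino acids, was most like the mean of the 9 enzymes over the 30 arrays, at a correlation of 0.97. Slc6a9, a glycine transporter, and Phf10 followed at 0.95, with the tRNA synthetases Gars at 0.95 and Wars and Nars at 0.94, Glrp1 at 0.94 and Bcat1, a branched-chain aminotransferase, at 0.94. With group means taken out the most alike were Nolc1 at 0.90, Wars, Imp4 and Zbtb40 at 0.88, Slc7a5 at 0.87, Rcc2 at 0.86, and Reep6 and Nars at 0.85.

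Neighbouring enzymes were taken from lists of the same pathways. In the list of other serine, glycine and one-carbon genes, 14 of 18 were measured. In water mice 3 fell at 18 h, where 7.94% of all genes did, and none rose. These were Shmt1, the cytosolic partner of Shmt2, at -0.34 ± 0.060 (adjusted p = 0.00026), Gcsh, a protein of the glycine cleavage system, at -0.39 ± 0.074, and Mthfd1l, which releases formate from mitochondria, at -0.19 ± 0.045. In antibiotic mice 0 of the 14 passed at 18 h, where 1.22% of all genes did. The change from 0 to 18 h differed between the kinds of mice in 0 of the 14, where that of 0.105% of all genes did. Averaged over both, the same 3 were lower and Aldh1l1 was higher, by 0.16, where 8.14% of all genes were lower and 6.81% higher.

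Of the proline, glutamate and aspartate list 11 of 15 were measured. In water mice at 18 h 4 rose, where 6.18% of all genes did, and 2 fell, where 7.94% did. Aldh4a1, which takes part in the breakdown of proline, rose by 0.67 ± 0.084. Prodh, which takes part in it too, did not pass, with means of 6.96 at 0 h and 7.13 at 18 h. Glul, which makes glutamine, rose by 0.42, Asl by 0.24 and Glud1 by 0.23. Gpt2, a mitochondrial alanine aminotransferase, fell by 0.65 ± 0.096 and Got1 by 0.22. In antibiotic mice only the falls of Gpt2 (-0.65, adjusted p = 0.000305) and Got1 (-0.20, adjusted p = 0.0219) passed, where 0.908% of all genes fell. The change from 0 to 18 h differed between the kinds of mice in 0 of the 11, where that of 0.105% of all genes did. At 6 h in water mice Aldh4a1 rose by 0.41 and Got1 fell by 0.18, where 0.697% of all genes rose and 0.416% fell. Averaged over both kinds of mice at 18 h, 5 of this list were higher, where 6.81% of all genes were. In the other direction 2 were lower, where 8.14% were.

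In the transsulfuration and glutathione list, with 8 of 10 measured, Chac1, an enzyme that degrades glutathione, fell by 1.20 ± 0.17 in water and by 1.29 ± 0.17 in antibiotic mice at 18 h. It was the only one of the 8 to pass in either, where 7.94% of all genes fell in water and 0.908% in antibiotic mice. Averaged over both, Slc7a11, the cystine transporter, was lower too, by 0.48, where 8.14% of all genes were lower. In the list of the phosphoenolpyruvate and glycolysis branch 7 of 10 were measured and none passed at 6 h or at 18 h in water, in antibiotic mice or averaged over both.

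All 16 regulators of the amino acid response were measured. In water mice at 18 h 5 fell, Atf4 by 0.38 ± 0.044 (adjusted p = 1.6e-06), Trib3 by 0.64, Cebpg by 0.30, Ddit3 by 0.28 and Myc by 0.22, and Sesn2 rose by 0.84. Of all genes 7.94% fell and 6.18% rose there. In antibiotic mice 4 fell, where 0.908% of all genes did: Trib3 by 1.00 ± 0.15 (adjusted p = 0.000273), Ddit3 by 0.46, Nupr1 by 0.40 and Atf4 by 0.35 ± 0.044 (adjusted p = 4e-05). Sesn2, a stress-induced inhibitor of growth signalling, was the 1 regulator whose change differed between the kinds of mice at 18 h, by -1.09 ± 0.22 (adjusted p = 0.0421). The change of 0.105% of all genes differed there. At 6 h in water mice Sesn2 rose by 0.62, where 0.697% of all genes rose, and no other regulator passed.

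Atf4 read 9.61, 9.66, 9.67, 9.58 and 9.55 in water tumours at 0 h and 9.82, 9.86, 9.87, 9.89 and 9.83 in antibiotic tumours. At 6 h it read 9.56, 9.50, 9.48, 9.48 and 9.49 against 9.81, 9.80, 9.82, 9.80 and 9.68. At 18 h it read 9.27, 9.17, 9.29, 9.20 and 9.25 against 9.54, 9.53, 9.50, 9.63 and 9.32. The antibiotic arrays were above the water arrays at each time, as were those of 0.883% of all genes at 0 h, 1.53% at 6 h and 4.73% at 18 h. Array 5 of the antibiotic group was the lowest of its group at 6 and 18 h, as for most of the enzymes. Averaged over the times the antibiotic difference was 0.26 in Atf4, 0.50 in Ddit3, 0.77 in Trib3, 0.48 in Gpt2, 0.82 in Chac1 and 0.92 in Slc7a11, a description beside the 0.49 of Pck2. These genes were named after their values were seen. Of the 16 regulators 10 differed upwards and 6 downwards, with a median of 0.09 and Atf3 lowest at -0.22. Of the 11 in the proline list 4 lay above 0 and 7 below, with a median of -0.01, Aldh4a1 at -0.27 and Glul at -0.24. In the transsulfuration list 4 lay on each side (median 0.01), in the serine list 8 above and 6 below (median 0.02), and in the glycolysis branch 2 above and 5 below (median -0.03).

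**Figure D4:**
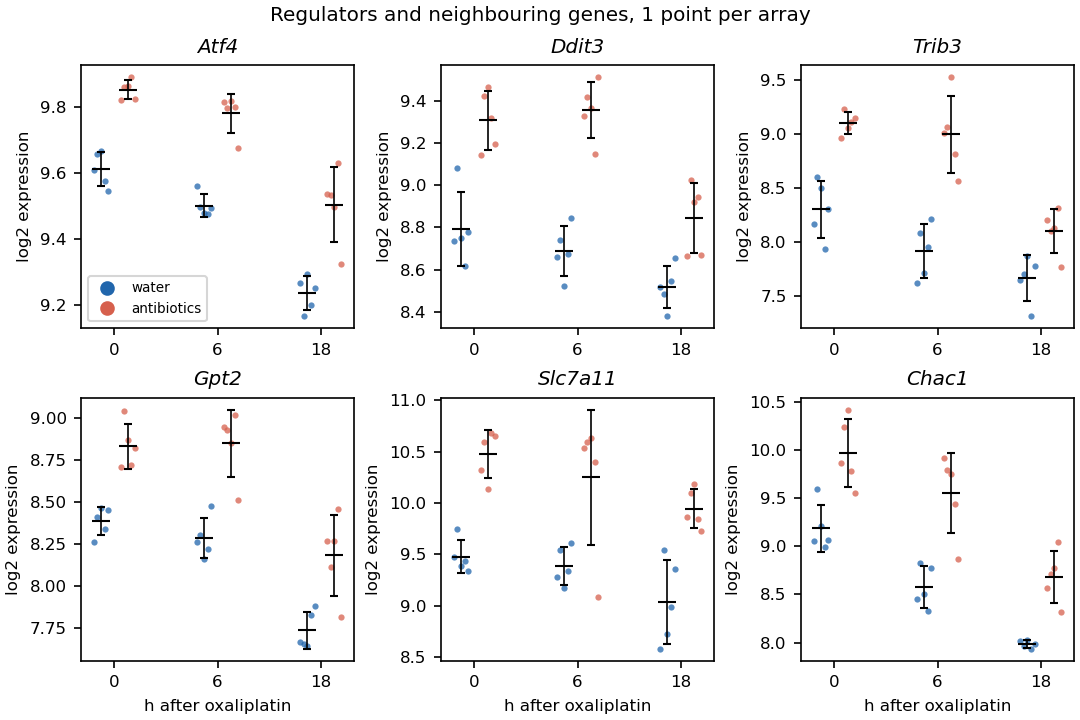
Log2 expression of Atf4, Ddit3, Trib3, Gpt2, Slc7a11 and Chac1 on each array against hours after oxaliplatin (times evenly spaced), water in blue and antibiotics in red; points are arrays, the dash is the mean and the bar the SD of 5 arrays, with a scale of its own for each panel. The Atf4 arrays at 18 h lie at 9.17 to 9.29 in water and 9.32 to 9.63 in antibiotic tumours, below the arrays at 0 h of the same treatment.

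Markers of other cells moved beside these results. The summed linear level of the 8 macrophage markers at 18 h lay between 8025 and 9883 in water tumours, above the 5772 to 7533 in antibiotic tumours. At 0 h the ranges were 7307 to 9411 and 5731 to 8032. At 18 h in water mice 1 of the 8 rose, Mpeg1, by 0.64 ± 0.19, where 6.18% of all genes did. So did 3 of the 8 fibroblast markers, Mmp2 by 0.78, Postn by 0.62 and Dcn by 0.39, and 3 of the 7 endothelial markers, Eng by 0.33, Vwf by 0.29 and Pecam1 by 0.22. Fabp4 rose by 0.57 among 6 adipocyte markers and Cd3d by 0.17 among 9 T cell markers, and no neutrophil, keratinocyte or skeletal muscle marker passed. None of these lists had a marker that passed in antibiotic mice at 18 h, where 1.22% of all genes did. Nor did any hold a marker whose change from 0 to 18 h differed between the kinds of mice, where 0.105% of all genes did. None of the 8 macrophage markers averaged below 8.42, and the defining ones Csf1r, Adgre1 and C1qa averaged 9.12, 9.51 and 9.16.

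Of the 7 proliferation markers measured 2 fell in water mice at 18 h, where 7.94% of all genes did, Mki67 by 0.19 and Rrm2 by 0.12. The summed level of the 7 lay at 24074 to 25258 there and at 25487 to 26431 in antibiotic tumours. The mean of the 9 enzymes correlated with the macrophage mean at -0.71 and with the proliferation mean at 0.55 over the 30 arrays, and at -0.60 and 0.57 with group means taken out. With the skeletal muscle mean it was at -0.13, and at -0.59 with group means taken out, where antibiotic 6 h array 5 is the farthest from its group mean in both. That array is also the farthest in the macrophage mean, at 0.22 where its group averaged -0.20. Its neutrophil mean was 0.37 where the group averaged -0.23, and its proliferation mean -0.07 where the group averaged 0.0015. The correlation with the neutrophil mean was -0.57 (-0.61 with group means taken out), with the fibroblast mean -0.60 (-0.19), with the endothelial mean -0.56 (-0.38), with the T cell mean -0.32 (-0.27), with the adipocyte mean -0.27 (-0.30) and with the keratinocyte mean 0.17 (0.07). The part of these cells in the results on the enzymes was not tested. Without the 3 arrays high in skin or muscle markers, each of the enzymes called at 18 h in water or in antibiotic mice kept its call. Those 3 arrays are all at 6 h, so leaving them out could change only the shared spread and not the changes from 0 to 18 h. The part of skin or muscle cells in the calls at 18 h was not tested.

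**Figure D5:**
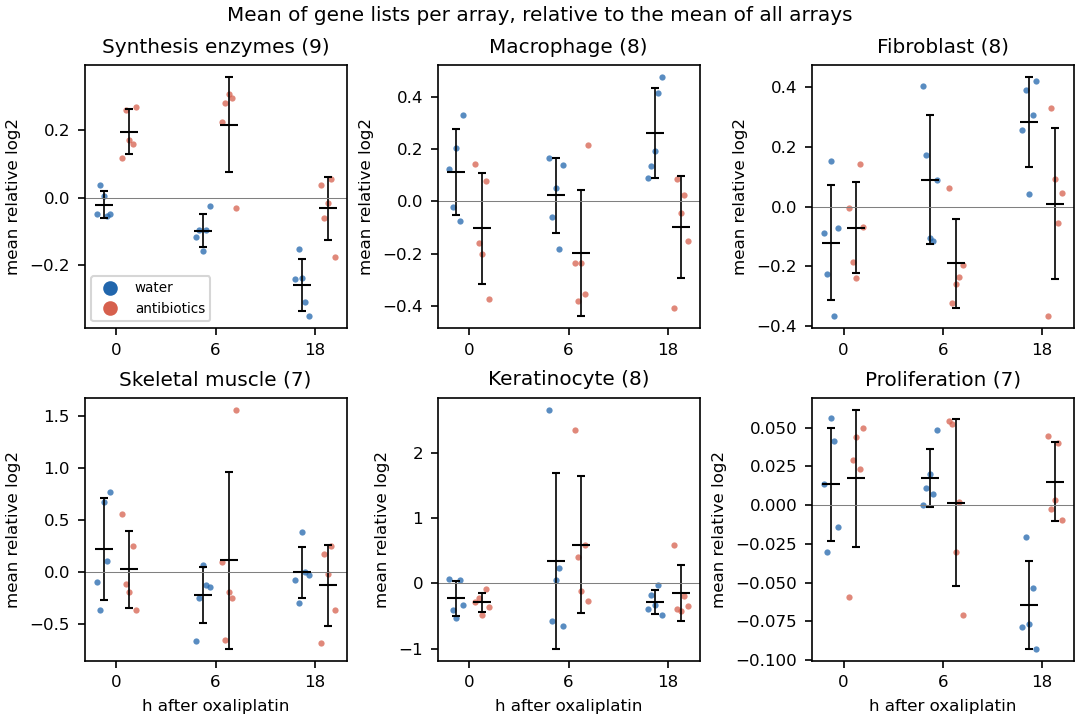
Mean log2 level, relative to the mean over all arrays, of the 9 synthesis enzymes and of markers of macrophages, fibroblasts, skeletal muscle, keratinocytes and proliferation (number of genes in brackets), per array, against hours after oxaliplatin (times evenly spaced), water in blue and antibiotics in red; points are arrays, the dash is the mean and the bar the SD. At 18 h the macrophage mean runs from 0.09 to 0.48 in water and from -0.41 to 0.09 in antibiotic tumours, and the skeletal muscle mean of antibiotic 6 h array 5 is 1.56.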

How the data were processed

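Deposited values are log2 expression for 28853 rows on each of 30 Affymetrix mouse gene arrays, hybridised with cRNA made from 300 ng of total RNA, per the labels' protocols. The submitters' processing notes name Partek 6.6 without its role; the summary and normalisation of probes are not given in the sources used here. The array medians lay between 7.253 and 7.365, and sorted values differed by up to 0.276 between arrays. Values were used as deposited. Gene names come from the array's own, possibly outdated, annotation: 21775 rows had 1 symbol, 1578 had several and 5500 had none here. Of those with 1 symbol 21684 were found in the mouse reference by Entrez number and 0 were renamed. For 998 genes with several rows the brightest on average was kept, which gave 19938 genes.

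One model with 6 group means was fitted to all genes in R 4.3.3 by lmFit and eBayes of limma 3.58.1 (24 residual and 3.63 prior degrees of freedom). P-values were adjusted by Benjamini-Hochberg over the 19938 genes of each comparison, with two-sided tests and a threshold of 0.05 on the adjusted p. The number of arrays limits the precision: the median residual SD was 0.115. The enzymes, the pathway and marker lists and the comparisons were chosen with earlier results of these data known, and Pck2, which the choice rests on, was left out of all counts of calls. Named beside the enzymes were list genes that passed, at most 4 a list and direction by smallest p, and the 8 genes most like the enzymes by each of 2 correlations; marker genes and the 5 genes plotted beside Atf4 were named after their values were seen. The alternatives were quantile normalisation, subtracted array medians, the mean of a gene's rows, no dim genes (lowest 25% left out), fits of only the groups compared, array weights, 2 other treatments of the variances and each array left out in turn. On simulated data for 18 h against 0 h in water mice, with 200 of 19938 genes changed, the script recovered 90% of genes changed by 0.5 and 98% of those changed by 1 on the log2 scale, with 10 false calls and 0 wrong signs. Changes under 0.5, as most of those of the enzymes were, and differences in change between the kinds of mice were not simulated.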

Additional observations from a re-analysis of the deposited data

Results flagged for a closer look

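In 8 of the 54 combinations of an enzyme and a group of 5 arrays, 1 array stood far from the other 4 (the gap to its neighbour was over 0.71 of the range of the group), where about 1 in 20 would by chance. Antibiotic 6 h array 5 was that array in 5 of them, low each time. It read 9.02 in Pck2 (nearest array 9.61), 8.53 in Psph (9.01), 10.99 in Mthfd2 (11.42), 11.23 in Aldh18a1 (11.52) and 11.80 in Psat1 (11.97). The same array had the highest mean of skeletal muscle markers of the series, 1.56 above the average of all arrays, and the highest mean of the phosphoenolpyruvate and glycolysis list, 0.45 above. Its macrophage mean was 0.22, against -0.38 to -0.24 on the other 4 arrays of its group, and its neutrophil mean 0.37, against -0.55 to -0.05. Antibiotic 18 h array 5 held the lowest value of its group in 8 of the 9 enzymes. Its skeletal muscle mean was -0.36 where its group averaged -0.13, and its glycolysis list mean -0.12 where the group averaged -0.08. Its macrophage mean was -0.15 where the group averaged -0.10, and its neutrophil mean 0.30 where the group averaged 0.11. The part of these in the low enzyme values of either array was not tested. Psat1 read 11.84 on antibiotic 0 h array 1, below a nearest array of 12.01. Mthfd2 read 10.81 on water 18 h array 2, above a nearest array of 10.60. Asns read 12.76 on water 6 h array 1, below a nearest array of 12.79 in a group whose SD was 0.013.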

How the results depend on the processing

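No result changed direction past the threshold in any of the 39 alternatives. With array medians subtracted, and with the 3 arrays high in skin or muscle markers left out (an alternative chosen after seeing the data), 0 enzymes in place of 1 passed at 6 h in water mice. With only the groups compared fitted, 1 in place of 3 fell from 0 to 18 h and 0 in place of 3 from 6 to 18 h in antibiotic mice; fewer arrays then estimate the spread. Leaving out 1 array at a time gave 0 to 1 enzymes at 6 h and 5 at 18 h in water mice, 2 to 4 from 6 to 18 h there, 0 at 6 h in antibiotic mice, 1 to 4 at 18 h and 1 to 5 from 6 to 18 h there, 5 to 7 at 18 h averaged over both, and 0 for both differences in change. The antibiotic difference of Psph at 6 h was 0.53 without the skin and muscle arrays, and the untested changes of Pck2 from 0 to 6 h and from 6 to 18 h in antibiotic mice then moved by more than 1 SD and kept their sign. Subtracting array medians moved the median of all genes by at most 0.04, and the split of all genes at 18 h in water mice from 1233 higher and 1583 lower to 820 and 2280. Signal over background cannot be set for Cth, whose mean of 6.21 lay close to the 6.18 under which 25% of genes lay. The cause of these changes was not tested.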
